A study of Mus musculus with 12 samples.

Results

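The genes described here are 10 genes that govern passage through G1, the phase of the cell cycle before DNA replication, in mouse CD4+ T cells. They were chosen by name and role, with earlier results of these data known. Among them are the D-type cyclins *Ccnd2* and *Ccnd3* and the cyclin-dependent kinases *Cdk4* and *Cdk6*. The others are the CDK inhibitors *Cdkn1a*, *Cdkn1b*, *Cdkn2c* and *Cdkn2d*, the pocket protein gene *Rb1* and the transcription factor gene *E2f1*. These 10 genes, of the 56691 in the count table, all passed the filter of 30 or more reads in sum across the 12 libraries. In all, 15138 genes passed, which were the genes tested.

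All mice were Tg4 *Nr4a3*-Tocky *Il10*-GFP mice. Most of their CD4+ T cells carry 1 transgenic TCR for a myelin basic protein peptide, a Timer protein reports transcription of *Nr4a3*, and GFP reports *Il10*. Every mouse received 4 mg/kg of [4Y]-MBP peptide, then antibody (0.5 mg) 24 h later, then 0.4 mg/kg of the peptide 30 min after the antibody. The groups received a pool of rat isotype antibodies (isotype), anti-Lag3, anti-PD-L1, or anti-Lag3 and anti-PD-L1 combined (CB), with 3 mice and 3 libraries each. Splenic CD4+ T cells carrying both the blue and the red form of the Timer protein were sorted 12 h after the second peptide dose. The sort selected cells with recent and continuing *Nr4a3* transcription in every group, so the libraries describe responding cells only, and cells of 1 TCR specificity. Cells were sorted in mixed batches holding all 4 conditions, told apart by a CD4 antibody with another dye for each condition, so the dye of the sort and the treatment cannot be told apart. The labels do not give the age or sex of each mouse.

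D-type cyclins are made in response to antigen receptor and growth factor signals and activate CDK4 and CDK6, which phosphorylate the retinoblastoma protein encoded by *Rb1*. Phosphorylated retinoblastoma protein releases E2F factors such as E2F1, which switch on genes of DNA replication. The inhibitors of the INK4 family, which include p18 (*Cdkn2c*) and p19 (*Cdkn2d*), bind CDK4 and CDK6, while those of the Cip/Kip family, p21 (*Cdkn1a*) and p27 (*Cdkn1b*), also bind cyclin E and cyclin A complexes with CDK2. In T cells p27 is abundant at rest and declines as cells enter the cycle, largely through destruction of the protein.

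*Cdkn1b* and *Cdkn2d* were the genes of the group called different between CB and isotype, and the DNA just upstream of each is shown for that reason. Their RefSeq promoter windows, from 250 bases before to 50 bases after the start, were searched on both strands for the CCAAT box (CCAAT) and the GC box (GGGCGG). The stretches printed below end where the annotated gene begins, read 5′ to 3′ on the gene's strand, and have matches to either motif on either strand in capitals. The stretch of *Cdkn1b* is chr6:134920151-134920400 on the plus strand of GRCm38.p6, and that of *Cdkn2d* is chr9:21291408-21291459 on the minus strand.
Cdkn1b: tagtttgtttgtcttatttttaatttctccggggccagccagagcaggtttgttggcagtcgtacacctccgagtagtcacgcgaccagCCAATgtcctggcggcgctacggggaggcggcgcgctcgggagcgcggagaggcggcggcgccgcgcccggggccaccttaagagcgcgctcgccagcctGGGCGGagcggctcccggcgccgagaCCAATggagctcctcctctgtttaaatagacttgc
Cdkn2d: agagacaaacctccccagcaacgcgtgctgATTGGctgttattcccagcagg
The printed stretch of *Cdkn1b* holds 2 CCAAT boxes and 1 GC box, and the shorter one of *Cdkn2d* holds 1 CCAAT box, read on the opposite strand. Over the whole 300-base windows the counts were 3 CCAAT boxes and 1 GC box for *Cdkn1b*, and 1 CCAAT box and 5 GC boxes for *Cdkn2d*. Of 32841 windows of this length over all genes, 37.4% held CCAAT and 35.7% held GGGCGG. Windows were found for 8 of the 10 genes, and *Ccnd2* and *Rb1* had none. Other motifs searched on both strands were CACGTG (the E-box, in 7.15% of all windows), GTAAACA (3.65%), GGAAA (61.4%) and TTTCGCGC (0.323%), each counted separately. CACGTG occurred 4 times in the window of *Cdk4*, 1 time in that of *Cdk6* and 1 time in 1 of the windows of *Cdkn2c*, and not in those of the other 5 genes. GTAAACA occurred 1 time, in 1 of the windows of *Ccnd3*. GGAAA occurred in windows of *Ccnd3*, *Cdk4*, *Cdkn1a* and *Cdkn2d* and in none of *Cdkn1b*, and TTTCGCGC in no window of these genes. These matches describe letters in the reference sequence, and binding at them was not measured.

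Libraries were made from the 3′ ends of transcripts, and reads counted on genes ranged from 16449370 to 22151025 per library (median 19176439). Levels are given as CPM, counts per 1000000 reads on genes after TMM scaling in edgeR, with the SD over 3 mice. All 7 T cell marker genes had reads in every group. Their summed level was 2264 to 2330 CPM in CB and 2726 to 2837 CPM in isotype, and *Cd3e*, *Cd4* and *Thy1* were lower in CB (called by the test described below). The T cell markers *Cd3d*, *Cd3g*, *Trac* and *Lck* were not called. The 6 erythroid markers summed to 150 to 198 CPM in CB and 241 to 451 CPM in isotype, and *Hbb-bs* and *Hbb-bt* were called lower. The 6 B cell markers summed to 324 to 398 CPM in CB and 360 to 418 CPM in isotype, nearly all of it *Ighm*, while *Cd79a* was at 1.11 CPM or less in every library. The summed levels of 8 myeloid, 4 NK cell and 4 platelet markers did not exceed 24.5, 9.45 and 3.31 CPM in any library. The 2 CD8 T cell markers summed to 25.0 to 33.2 CPM in CB and 40.9 to 45.3 CPM in isotype, without overlap, nearly all of it *Cd8b1*, which was not called (log2 fold change -0.50, adjusted p = 0.242 in edgeR after Benjamini-Hochberg adjustment), while *Cd8a* was at 3.24 CPM or less. Reads of Y-linked genes marked 2 of 3 isotype libraries and 1 of 3 libraries in each other group as male.

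Across the 10 genes, CB differed from isotype in 2 inhibitors, and both were lower in CB. These were *Cdkn1b*, which fell by 36.2%, and *Cdkn2d*, which fell by 27.3%. None of the cyclins or kinases was called different. A gene was called where its p, from the quasi-likelihood test of edgeR and adjusted by Benjamini-Hochberg over all genes tested, was under 0.05. The 2 called genes of 10 compare with 4.29% of all genes tested called in either direction and 1.96% called lower. At an unadjusted p under 0.05 there were 3 of the 10, with *Cdkn2c* added, beside 14.9% of all genes. Called or not, 5 of the 10 genes had a log2 fold change above 0 and 5 below 0, with a median of 0.05 against 0 over all genes. In bulk RNA fewer cells of a type and less RNA per cell cannot be told apart.

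**Figure D1:**
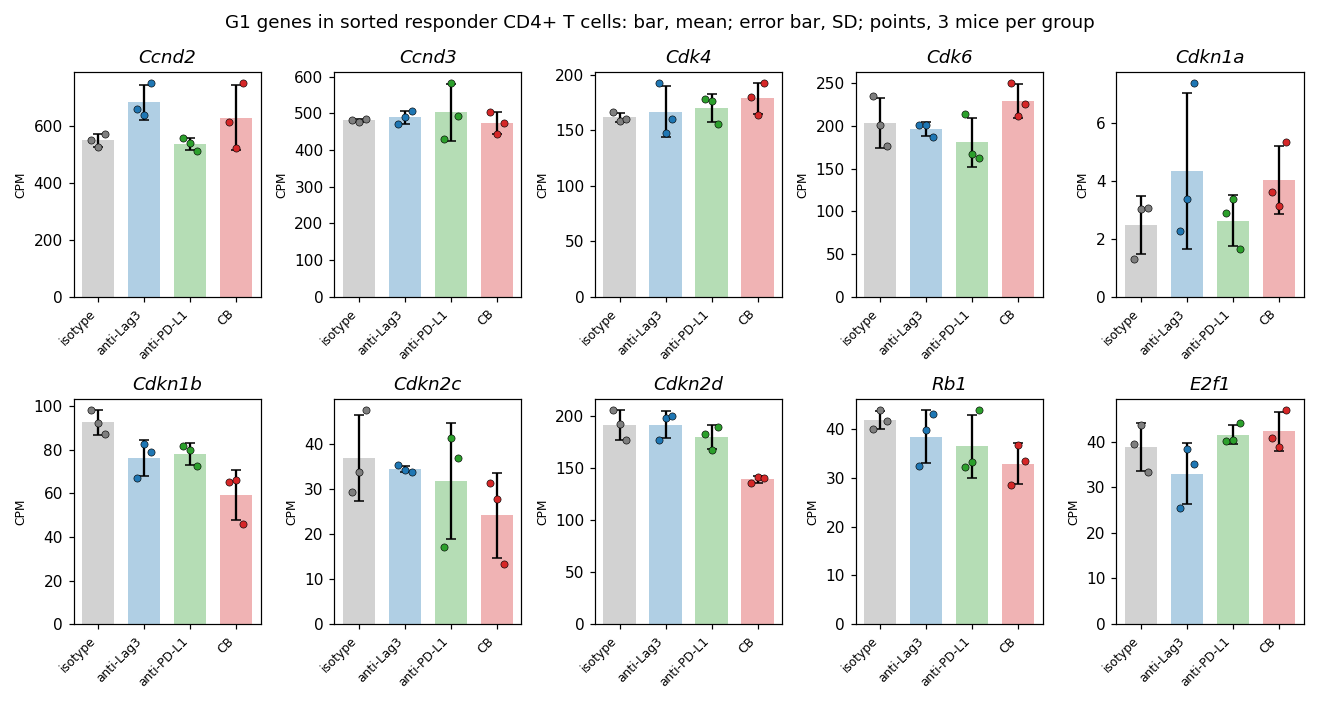
Normalized level in CPM (vertical axes, each from 0) of the 10 genes in the 4 groups (horizontal axes); bars are means, error bars are SD over 3 mice and points are single libraries. The 3 CB libraries lie below the 9 other libraries for *Cdkn1b* and *Cdkn2d*, and the groups overlap for *Ccnd3* and *Cdk4*.

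*Cdkn1b* (ENSMUSG00000003031, chromosome 6 from 134920401 to 134925513, plus strand) encodes p27, an inhibitor of cyclin E-CDK2 that also takes part in assembling cyclin D-CDK4 complexes. It stood at 98.5, 92.4 and 87.2 CPM in the isotype libraries and at 65.3, 66.2 and 45.8 CPM in the CB libraries. The groups did not overlap, and the third CB library was the lowest of all 12. The log2 fold change was -0.65 (standard error 0.15, 95% interval -0.96 to -0.34, adjusted p = 0.00969 in the quasi-likelihood test of edgeR after Benjamini-Hochberg adjustment). With a single antibody the levels were 67.1, 82.7 and 79.1 CPM after anti-Lag3 and 82.0, 79.8 and 72.6 CPM after anti-PD-L1. Every library of the single antibodies lay below every isotype library and above every CB library. Against isotype these differences were -0.28 for anti-Lag3 (adjusted p = 0.805) and -0.25 for anti-PD-L1 (adjusted p = 0.604, same edgeR test) on the log2 scale, and neither was called. Without CB replicate 3 the log2 fold change of CB against isotype was -0.50 and was not called (adjusted p = 0.107, edgeR with Benjamini-Hochberg adjustment), and without isotype replicate 1 it was -0.61 (adjusted p = 0.0516).

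*Cdkn2d* (ENSMUSG00000096472, chromosome 9 from 21288410 to 21291407, minus strand) encodes p19, the INK4 inhibitor of CDK4 and CDK6. Its levels were 206, 192 and 177 CPM in isotype and 135, 141 and 141 CPM in CB. The 3 CB libraries were close to each other, and all were lower than any library of the other groups. The log2 fold change was -0.46 (standard error 0.11, 95% interval -0.68 to -0.24, adjusted p = 0.0110 in the quasi-likelihood test of edgeR after Benjamini-Hochberg adjustment). Anti-Lag3 alone left the mean at 191 ± 13.0 CPM (SD, n = 3), beside 191 ± 14.5 CPM in isotype, with a 95% interval of the log2 fold change of -0.22 to 0.22. After anti-PD-L1 the mean was 180 ± 11.2 CPM, with a log2 fold change of -0.09 against isotype (95% interval -0.31 to 0.13). Neither single antibody was called different from isotype. The call between CB and isotype was lost without isotype replicate 1 (log2 fold change -0.41, adjusted p = 0.0693, edgeR with Benjamini-Hochberg adjustment) and without CB replicate 1 (-0.44, adjusted p = 0.0527).

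Neither *Cdkn1b* nor *Cdkn2d* overlaps another annotated gene. Both differences had the same direction within each sex as read from Y-linked genes. The log2 ratio of mean CPM between CB and isotype was -0.55 in males and -0.64 in females for *Cdkn1b*, and -0.55 in males and -0.32 in females for *Cdkn2d*, with 1 to 2 libraries a group. Both were still called with sex as a covariate, an alternative chosen after the data were seen. Summed T cell, CD8 T cell and erythroid marker levels moved in the same direction between these groups, and their part in the result was not tested.

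The remaining inhibitors were not called. *Cdkn2c* (ENSMUSG00000028551, chromosome 4), which encodes p18 of the INK4 family, was at 29.2, 33.7 and 47.5 CPM in isotype and at 31.2, 27.8 and 13.3 CPM in CB. These ranges overlap, and the low value of CB replicate 3 had a counterpart of 17.1 CPM in anti-PD-L1 replicate 1. Its log2 fold change was -0.61 (standard error 0.29, unadjusted p = 0.0468, adjusted p = 0.327, the quasi-likelihood test of edgeR after Benjamini-Hochberg adjustment). *Cdkn1a* (ENSMUSG00000023067, chromosome 17), the p53-responsive gene of p21, had few reads, 26 to 141 per library. Its levels ran from 1.31 to 3.07 CPM in isotype and from 3.13 to 5.35 CPM in CB, without overlap, and from 2.28 to 7.40 CPM after anti-Lag3. The 95% interval of its log2 fold change between CB and isotype, -0.89 to 2.30, holds both directions. The processing steps given in the sources used here name no collapsing of PCR copies by molecular identifiers. These few reads may therefore include PCR copies.

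*Rb1* (ENSMUSG00000022105, chromosome 14), the gene of the retinoblastoma protein, was at 40.1, 43.9 and 41.7 CPM in isotype and at 28.5, 36.8 and 33.6 CPM in CB. The groups did not overlap, yet the difference was not called (log2 fold change -0.35, 95% interval -0.75 to 0.06, adjusted p = 0.403, edgeR with Benjamini-Hochberg adjustment). Exons of *Rb1* share 488 bases with *Rcbtb2* and 408 bases with *Lpar6* on the opposite strand. Over all libraries there were 8699 reads on *Rb1*, 9158 on *Rcbtb2* and 1911 on *Lpar6*. The strand setting of the counting is not given in the sources used here. With *Rb1*, 4 of the 10 genes had libraries that did not overlap between CB and isotype (*Cdkn1a* above, and *Cdkn1b*, *Cdkn2d* and *Rb1* below), beside 20.0% of all genes tested. *E2f1* (ENSMUSG00000027490, chromosome 2), the E2F factor that drives replication genes, averaged 38.8 ± 5.23 CPM in isotype and 42.2 ± 4.22 CPM in CB (SD, n = 3), with a log2 fold change of 0.12 (95% interval -0.28 to 0.52).

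The D-type cyclins did not differ detectably between CB and isotype. *Ccnd2* (ENSMUSG00000000184, chromosome 6), which encodes cyclin D2, was at 550, 528 and 571 CPM in isotype and at 614, 523 and 752 CPM in CB. The CB libraries spread from below the lowest isotype library to above the highest. The log2 fold change was 0.20 (standard error 0.10, adjusted p = 0.377, the quasi-likelihood test of edgeR after Benjamini-Hochberg adjustment). *Ccnd3* (ENSMUSG00000034165, chromosome 17), the gene of cyclin D3, averaged 481 ± 4.51 CPM in isotype and 473 ± 30.4 CPM in CB (SD, n = 3). Its log2 fold change of -0.02 had a 95% interval of -0.22 to 0.18. *Ccnd3* shares 361 exon bases with *Bysl* on the opposite strand, with 112767 reads on *Ccnd3* and 10880 on *Bysl* over all libraries.

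The kinases were likewise not called. *Cdk4* (ENSMUSG00000006728, chromosome 10) averaged 161 ± 4.06 CPM in isotype and 178 ± 14.3 CPM in CB (SD, n = 3; log2 fold change 0.15, 95% interval -0.10 to 0.39). Its exons share 641 bases with *Tspan31* on the opposite strand, with 39267 reads on *Cdk4* and 4181 on *Tspan31* over all libraries. *Cdk6* (ENSMUSG00000040274, chromosome 5), the kinase that shares its cyclin partners and inhibitors with CDK4, was at 235, 201 and 176 CPM in isotype and at 251, 211 and 225 CPM in CB. The groups overlap, and the log2 fold change was 0.17 (95% interval -0.08 to 0.42).

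**Figure D2:**
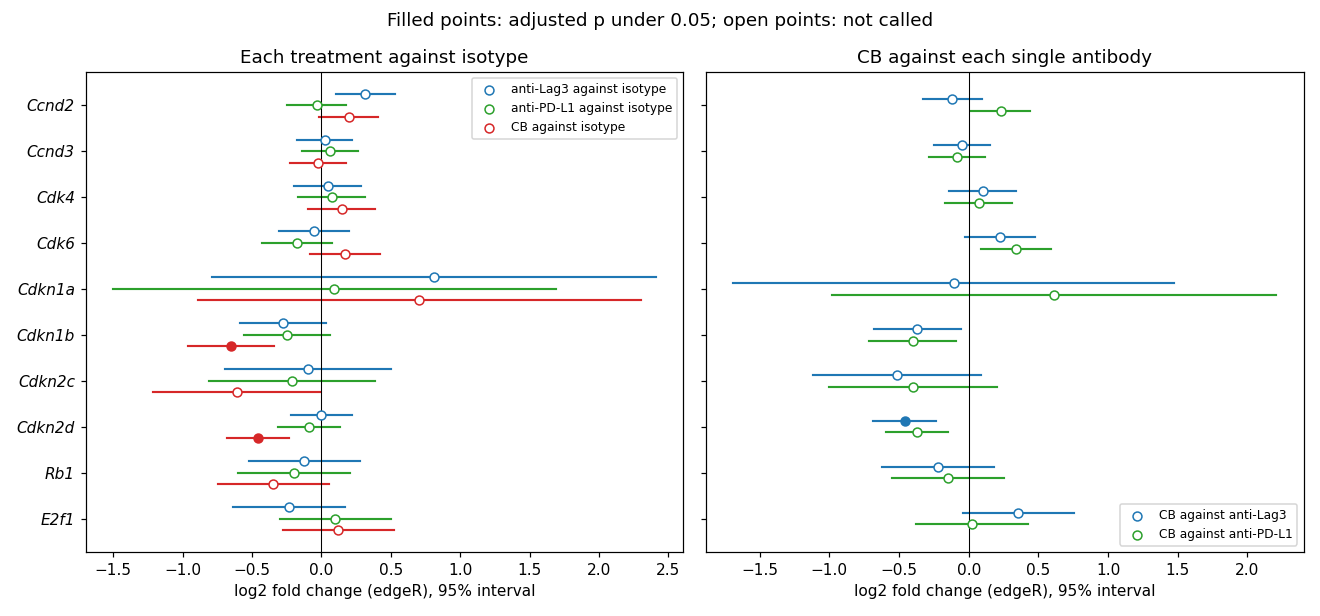
Log2 fold change (horizontal axes) of the 10 genes (rows) for each treatment against isotype (left) and for CB against each single antibody (right); lines are 95% intervals and filled points have an adjusted p under 0.05. Filled points are *Cdkn1b* (-0.65) and *Cdkn2d* (-0.46) for CB against isotype and *Cdkn2d* (-0.46) for CB against anti-Lag3.

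The single antibodies were compared with isotype to ask what each blockade does alone. For anti-PD-L1, edgeR called 0 of the 10 genes, beside 0.0330% of all genes. DESeq2's Wald tests against 0 and 0.2 called 0 of the 10, beside 56 and 11 of all 15138 genes. In edgeR 0 of the 10 had an unadjusted p under 0.05, beside 7.84% of all genes. *Cdkn1b* was the gene of the 10 whose libraries did not overlap there, all 3 below isotype, and 11.8% of all genes did not overlap. For anti-Lag3, edgeR called 0 of the 10 and 0% of all genes. The same 2 DESeq2 tests called 0 of the 10, beside 9 and 2 of all genes. In edgeR 1 of the 10, *Ccnd2*, had an unadjusted p under 0.05, beside 5.21% of all genes. *Ccnd2* stood at 659, 639 and 753 CPM after anti-Lag3. These 3 libraries lay above all isotype and anti-PD-L1 libraries and overlapped with CB. Against isotype the log2 fold change was 0.31 (95% interval 0.10 to 0.53, adjusted p = 0.805, the quasi-likelihood test of edgeR after Benjamini-Hochberg adjustment). *Ccnd2* above and *Cdkn1b* below were the 2 genes of 10 without overlap between anti-Lag3 and isotype, beside 10.1% of all genes.

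CB was compared with each single antibody to ask what the second antibody adds. Against anti-Lag3, *Cdkn2d* was again lower, by a log2 fold change of -0.46 (95% interval -0.68 to -0.24, adjusted p = 0.0411, the quasi-likelihood test of edgeR after Benjamini-Hochberg adjustment), from 176, 198 and 200 CPM after anti-Lag3. That was 1 called gene of 10, beside 0.694% of all genes called and 0.304% called lower, and both CB comparisons use the same CB libraries. At an unadjusted p under 0.05 there were 2 of the 10, *Cdkn1b* and *Cdkn2d*, beside 9.46% of all genes. This call was lost when any of isotype replicate 2, anti-Lag3 replicates 2 and 3 or any CB library was left out, with adjusted p-values (edgeR, Benjamini-Hochberg) between 0.0562 and 0.203. *Cdkn1b* differed by -0.37 (95% interval -0.68 to -0.06) and was not called (adjusted p = 0.405, same edgeR test), and by -0.22 without CB replicate 3. In this comparison 5 of the 10 genes did not overlap, *Cdk6* and *E2f1* above and *Cdkn1b*, *Cdkn2c* and *Cdkn2d* below, beside 14.8% of all genes.

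Against anti-PD-L1, edgeR called 0 of the 10 genes, with 4 at an unadjusted p under 0.05 beside 9.08% of all genes, and DESeq2's Wald test against 0 called 1, *Cdkn2d*. Of all genes 0.370% were called by edgeR, and DESeq2's Wald test against 0 called 178 of 15138. *Cdkn2d* stood at 183, 167 and 189 CPM after anti-PD-L1, above all CB libraries, with a log2 fold change of -0.37 (95% interval -0.59 to -0.15, adjusted p = 0.177, edgeR with Benjamini-Hochberg adjustment). The others were *Cdkn1b* (-0.40), *Cdk6* (0.34) and *Ccnd2* (0.23), with adjusted p-values (edgeR, Benjamini-Hochberg) of 0.363, 0.334 and 0.496. Without CB replicate 3 the log2 fold change of *Ccnd2* was 0.083 and that of *Cdkn1b* -0.25, and without CB replicate 2 that of *Ccnd2* was 0.35. *Cdk6* averaged 181 ± 28.4 CPM after anti-PD-L1, the lowest of the 4 group means, and 229 ± 20.1 CPM in CB, the highest (SD, n = 3). Its libraries overlapped between these groups, and the 2 of 10 genes without overlap were *Cdkn1b* and *Cdkn2d*, beside 12.7% of all genes.

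Anti-PD-L1 was also compared with anti-Lag3, and 0 of the 10 genes were called by edgeR or DESeq2, beside 0% of all genes by edgeR. DESeq2's Wald tests against 0 and 0.2 called 10 and 8 of all genes there. *Ccnd2* was the 1 gene of the 10 with an unadjusted p under 0.05, beside 4.69% of all genes (log2 fold change -0.35, 95% interval -0.56 to -0.14, adjusted p = 0.802, edgeR with Benjamini-Hochberg adjustment). *Ccnd2* below and *E2f1* above were the genes without overlap, beside 8.70% of all genes. The interaction is the CB effect beyond the sum of the single effects on the log2 scale. DESeq2's Wald tests against 0 and 0.2 called it for 0 of the 10 genes, beside 5 and 2 of all genes. In edgeR it was called for 0 of the 10 genes and 0% of all genes. At an unadjusted p under 0.05 there were 2, beside 5.93% of all genes, *Cdkn2d* (-0.37, 95% interval -0.69 to -0.05) and *Cdk6* (0.40, 95% interval 0.04 to 0.75), each with an adjusted p of 0.804 in the quasi-likelihood test of edgeR after Benjamini-Hochberg adjustment. For *Cdkn1b* the interaction was -0.12 (95% interval -0.56 to 0.31). For this gene the group means ran in the order CB, anti-Lag3, anti-PD-L1 and isotype from low to high. Over the 10 genes, neighbouring groups in such an order overlapped except in the following cases. These were CB below anti-Lag3 and anti-PD-L1 below isotype for *Cdkn1b*, and CB below anti-PD-L1 for *Cdkn2d*. In these comparisons 14.8%, 11.8% and 12.7% of all genes did not overlap, in either direction. No share over all genes was computed for neighbours in order.

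**Figure D3:**
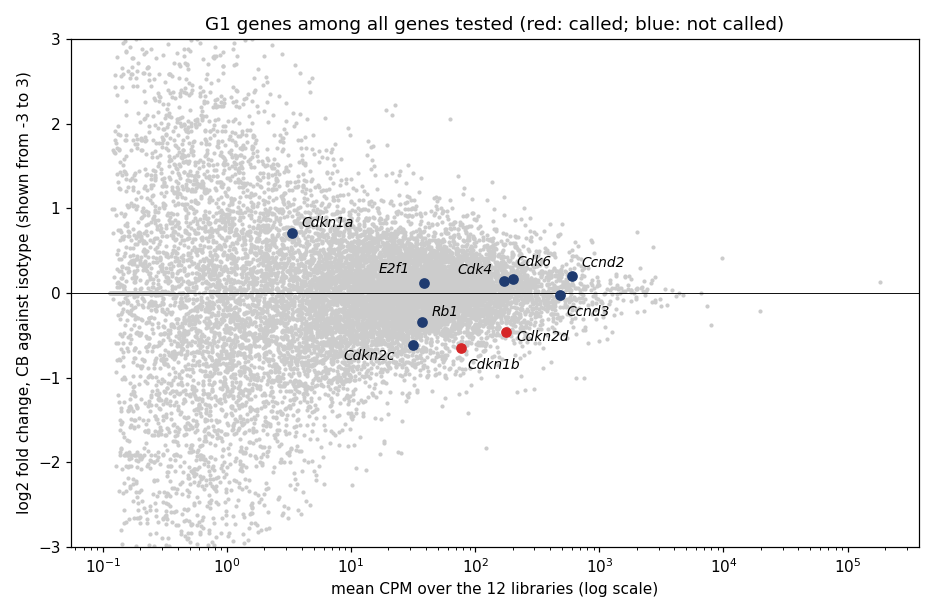
Log2 fold change of CB against isotype (vertical axis, shown from -3 to 3) by mean CPM over the 12 libraries (horizontal log axis) for all 15138 genes tested (grey) and the 10 G1 genes (red, called; blue, not called). *Cdkn1b* and *Cdkn2d* are the red points, and *Cdkn1a*, at the lowest level of the 10, lies where the grey cloud is wide.

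Other genes of the same pathway were read from 7 further lists, also chosen with earlier results of these data known. Of the 9 other G1 cyclins, kinases and activators, 0 were called higher between CB and isotype. Their median log2 fold change was 0.13 against 0 over all genes. Called lower was 1 of the 9, beside 1.96% of all genes called lower and 4.29% called in either direction. It was *Ccna2*, the gene of cyclin A2, which acts in S phase and later, at -0.41 (standard error 0.11, adjusted p = 0.0334, the quasi-likelihood test of edgeR after Benjamini-Hochberg adjustment). The call for *Ccna2* was lost without isotype replicate 1 or 3 or CB replicate 1 or 3 (adjusted p 0.0782 to 0.242, edgeR with Benjamini-Hochberg adjustment). *Ccnd1*, the D-type cyclin outside the 10, had 224 reads over all 12 libraries. The other CDK inhibitors were also near the limit of these libraries, with 162 reads for *Cdkn1c*, the smallest p of its list, 82 for *Cdkn2a* and 12 for *Cdkn2b*, which was not tested. Neither of the 2 tested was called.

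Among 11 pocket protein, E2F and DP genes none was called by edgeR, beside 4.29% of all genes, and the median log2 fold change was 0.01. The smallest p belonged to *E2f2*, an activating E2F, at -0.34 (adjusted p = 0.0964, edgeR with Benjamini-Hochberg adjustment), and 3 of 20 alternatives called it, DESeq2's Wald test against 0 (adjusted p = 0.0272) and edgeR with the replicate block (0.0380) or with sex as a covariate (0.0456). These settings called 918, 843 and 731 of all genes, beside 649 in the main edgeR fit. Among 10 genes of ubiquitin ligases that act on G1 proteins, edgeR called none (median 0.05). The smallest p was that of *Fbxo31*, an F-box gene, at 0.85 (adjusted p = 0.171, edgeR with Benjamini-Hochberg adjustment). Among 12 tested p53 targets, from a list of 14, edgeR likewise called none (median 0.12), and the smallest p was that of *Btg2*, an antiproliferative gene, at -0.34 (adjusted p = 0.335).

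Downstream of E2F, none of 20 replication genes was called by edgeR between CB and isotype, beside 4.29% of all genes. Their median was -0.08, with 8 of 20 above 0. *Rrm1*, the large subunit of ribonucleotide reductase, came closest at -0.33 (adjusted p = 0.0517, edgeR with Benjamini-Hochberg adjustment), just above the threshold. It was called in 7 of 20 alternatives, which were DESeq2's Wald test against 0 (adjusted p = 0.00279) and edgeR with DESeq2's size factors, with filterByExpr, with the replicate block, with sex as a covariate, and without anti-PD-L1 replicate 1 or 2 (adjusted p 0.0307 to 0.0491). The settings that called *Rrm1* called 659 to 918 of all genes, beside 649 in the main edgeR fit. Of 12 mitotic genes, 4 were called lower in CB and 0 were called higher, beside the 1.96% of all genes called lower. Called or not, 11 of the 12 had a log2 fold change below 0 and 1 above, with a median of -0.29. The 4 were *Mki67*, the gene of the proliferation marker Ki-67, at -0.59, *Top2a*, a topoisomerase, at -0.46, *Kif11*, a spindle motor, at -0.59, and *Aurkb*, a mitotic kinase, at -0.58. Their adjusted p-values were 0.00140, 0.00223, 0.00349 and 0.0229 in the quasi-likelihood test of edgeR after Benjamini-Hochberg adjustment. *Mki67*, *Top2a* and *Kif11* were called with any library left out, while *Aurkb* was not called without isotype replicate 3 or CB replicate 1 or 3 (adjusted p 0.0991 to 0.109). DESeq2's Wald test against 0.2 did not call *Top2a* (adjusted p = 0.102), *Aurkb* (0.377) or *Ccna2* (0.633). None of the genes of these lists was called by edgeR in any other comparison. The summed T cell, CD8 T cell and erythroid marker levels given above did not overlap between the same groups, and their part in these values was not tested.

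**Figure D4:**
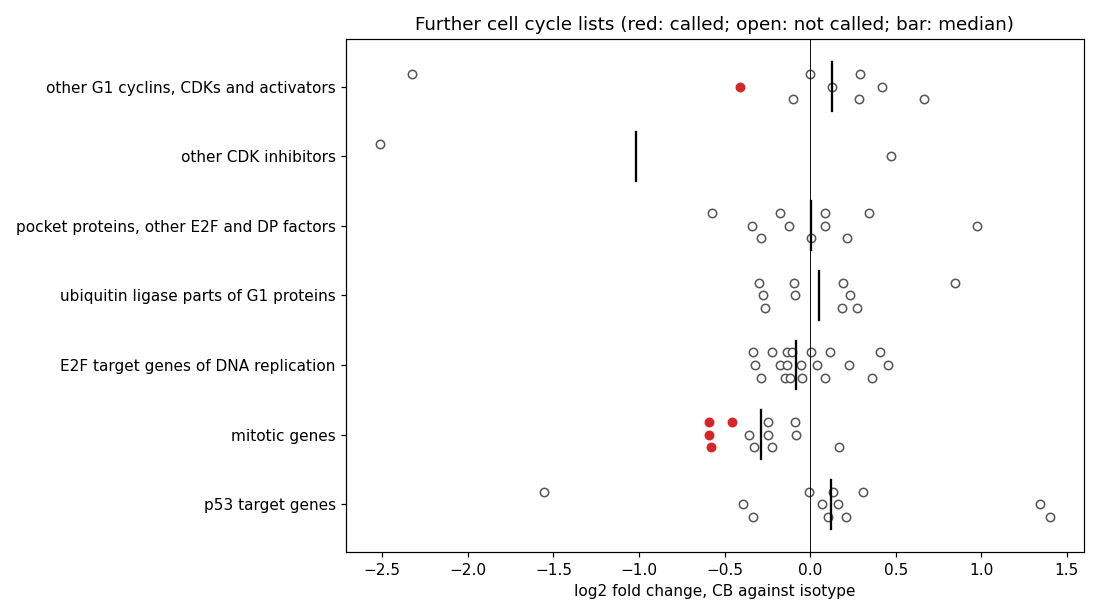
Log2 fold change of CB against isotype (horizontal axis) of each tested gene in the 7 further lists (rows; points, genes, spread vertically for clarity); red points have an adjusted p under 0.05 and bars are medians. Red points are *Ccna2* (-0.41) and 4 mitotic genes (-0.59 to -0.46), and the median of the mitotic genes is -0.29.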

How the data were processed

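RNA of sorted splenic CD4+ Timer Blue+Red+ T cells was sequenced from 12 mice, 3 per group, as 3′ mRNA libraries. The authors deposited raw counts of reads per gene. The submitters' processing notes name cutadapt 1.18, STAR 2.6.1a, featureCounts 1.6.4 and GRCm38; the annotation release and strand setting are not given in the sources used here. A second deposited table, of rlog values, was not used, and 0 columns of samples were left out. Columns were assigned to groups by the sample labels. Spike-ins, 0.719% to 1.29% of counts, were left out.

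Genes with at least 30 reads in sum were tested with edgeR 4.0.16 (limma 3.58.1, R 4.3.3): TMM scaling, a fit of 4 group means to the 12 samples with no covariate, the quasi-likelihood test, and adjustment by Benjamini-Hochberg across 15138 genes, threshold 0.05. Fold changes carry a prior count of 0.125. The interaction subtracts the effects of both single antibodies from that of CB, each against isotype. Alternatives were DESeq2 1.42.0 (Wald tests against 0 and against a log2 fold change of 0.2), its size factors in edgeR, no filter, filterByExpr, a replicate block, only the groups compared, each library left out, and sex as a covariate. Samples of a group differed by more than sampling noise (chi-square per degree of freedom 20.9 to 47.1).

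Members and lists were chosen with earlier results of these data known. The text names all 10 members and, of each further list, up to 5 genes called between CB and isotype, or else the one with the smallest p; *Ccnd1*, *Cdkn2a*, *Cdkn2b* and markers are named as exceptions, for their reads. Symbols and coordinates come from GENCODE M21 (52073 of 56691 genes matched) and promoter sequences from RefSeq on GRCm38.p6.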

Additional observations from a re-analysis of the deposited data

How the results depend on the processing

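Between CB and isotype, edgeR called 2 of the 10 genes, beside 649 of all 15138. The Wald test of DESeq2 against 0.2 (log2) called 0, beside 233 of all genes. With single libraries left out the count ranged from 0 to 2, with 0 without isotype replicate 1 and 1 without CB replicate 1 or 3. In these fits the calls over all genes were 405 without isotype replicate 1, 421 without CB replicate 1 and 394 without CB replicate 3. Over all alternatives the log2 fold change of *Cdkn1b* ran from -0.74 to -0.50 and that of *Cdkn2d* from -0.52 to -0.41, each called in 10 of 12 fits with 1 library left out. Between CB and anti-Lag3 the count fell from 1 to 0 with DESeq2's Wald test against 0.2 and with only the groups compared. These settings called 41 and 101 of all genes. With libraries left out the count ranged from 0 to 1, beside 42 to 125 of all genes. Between CB and anti-PD-L1 the count rose from 0 to 1 with DESeq2's Wald test against 0 (*Cdkn2d*, log2 fold change -0.38, adjusted p = 0.0243), beside 178 of all genes. *Ccnd3* changed sign between CB and isotype, lying between -0.071 and 0.023 with libraries left out (above 0 without CB replicate 2), and *Cdkn1c*, with few reads, to 0.059 with the replicate block. The cause of these changes was not tested. The replicate block left 2 genes called between CB and isotype, 1 between CB and anti-Lag3 and 0 elsewhere. Same-numbered samples had correlations of deviations between -0.06 and 0.12 over 10448 genes, and 8 of 12 samples correlated best with their own number, and the labels do not tie the numbers to the sorting batches. Most pairs lay below 0.1, and the block stayed an alternative. Whether the numbers mark the batches is not known. The paper attributes the second axis of its principal component analysis largely to the sorting batches. Over all genes the block moved the counts of calls from 649 to 843 (CB against isotype), 5 to 23 (anti-PD-L1 against isotype), 0 to 9 (anti-Lag3 against isotype), 56 to 137 (CB against anti-PD-L1), 105 to 208 (CB against anti-Lag3) and 0 to 4 (interaction). Over the other alternatives the count of all genes called between CB and isotype was between 233 and 918, between CB and anti-PD-L1 between 4 and 178, and between CB and anti-Lag3 between 41 and 280; elsewhere it was at most 56. *Cdkn1a*, *Cdkn1c* and *Cdkn2a* had few reads and wide errors.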
